A study of Mus musculus with 12 samples.

Results

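RLTR10 elements are long terminal repeats (LTRs) of mouse endogenous retroviruses, here taken as every repeat copy whose name begins with RLTR10 in the count table. They made up 10835 of 5138235 repeat copies and 10 of 1554 repeat names. These names were RLTR10, RLTR10-int, RLTR10A, RLTR10B, RLTR10B2, RLTR10C, RLTR10D, RLTR10D2, RLTR10E and RLTR10F, all placed by the table in the ERVK family. The counts came from whole testes of C57BL/6 mice at postnatal day 16 (P16), either heterozygous for *Mael* (*Mael*+/-) or homozygous for the mutated allele (*Mael*-/-). Testes were collected in buffer with cycloheximide, which holds ribosomes on their RNA, and each lysate gave a library of total RNA and a library of ribosome footprints. Each genotype had 3 replicates per assay, so the 12 libraries were 6 of each assay. In whole testes, fewer cells of a type and less RNA per cell cannot be told apart.

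An LTR flanks each end of an integrated retrovirus and carries the promoter, enhancer and polyadenylation signals of the element. Recombination between the ends of one element often leaves a solitary LTR, and RLTR10-int names the internal, once protein-coding portion rather than an LTR. RLTR10B is known as an enhancer of genes expressed in meiotic male germ cells, where the transcription factor A-MYB (encoded by *Mybl1*) binds it. Maelstrom, the protein made from *Mael*, acts in the piRNA pathway, which silences transposons in male germ cells. The table gives each copy a number but no position, length, strand or sequence, so neither the sequence nor the genomic surroundings of a copy were analysed here, and levels of different names or copies are not ranked per base.

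*Mael* itself had 5045, 4314 and 3800 RNA counts in the *Mael*+/- libraries and 1, 2 and 0 in the *Mael*-/- libraries. Its footprint counts were 1294, 660 and 863 against 0, 0 and 7. RNA libraries held 13697267 to 27462358 gene counts and footprint libraries 7609932 to 13233565. Levels below are in CPM (counts per 1000000 gene counts), scaled by TMM factors of the genes. RLTR10 counts were few, 1427 to 2287 per RNA library and 450 to 878 per footprint library. They were 0.0746% to 0.0949% of repeat counts in RNA and 0.0382% to 0.0493% in footprints. The 8 listed pachytene spermatocyte markers summed to 281, 90.8 and 106 CPM in *Mael*+/- RNA and to 87.3, 88.2 and 82.0 in *Mael*-/- RNA, and all 8 had the lower mean in *Mael*-/-. The 6 germ cell markers summed to 3015, 1370 and 1539 CPM in *Mael*+/- RNA against 1611, 1763 and 1334 in *Mael*-/- RNA, and all 6 also had the lower mean in *Mael*-/-. *Mael*+/- replicate 1 thus stood apart, and values without it are given beside some of the results that it moved. Of the 5 spermatid markers, *Prm1*, *Prm2* and *Tnp2* had no RNA count. The 6 Sertoli cell markers summed to 5537 to 6378 CPM in *Mael*+/- RNA and 5676 to 6405 in *Mael*-/- RNA. The 4 macrophage markers in the table summed to 136, 118 and 198 CPM against 195, 180 and 185, and 0 of them had the lower mean in *Mael*-/-. The part of these cell types in the RLTR10 levels was not tested.

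Few RLTR10 copies carried any read. Of the 10835 copies, 8146 had no count in the 12 libraries, 1190 had 1 count and 128 had 20 or more. The share of copies with a count ran from 8.51% for RLTR10F and 11.3% for RLTR10 to 36.5% for RLTR10B and 37.3% for RLTR10C. RNA counts summed over libraries were 2948 for RLTR10C, 2310 for RLTR10-int, 1874 for RLTR10B2 and 1175 for RLTR10B, with the other names between 78 (RLTR10F) and 702 (RLTR10E). These sums rested on few copies in some names and on many in others. The copy with most counts, RLTR10E_55, held 39.7% of RLTR10E RNA and the 5 leading copies 84.9%. The leading copy held 34.2% of RLTR10D2, 27.1% of RLTR10D and 24.6% of RLTR10A, but 9.33% of RLTR10C and 6.05% of RLTR10.

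The first comparison asked whether RLTR10 RNA differed between genotypes, name by name. RLTR10D and RLTR10D2 were higher in *Mael*-/- testes, and the other 8 names were not called. RLTR10D stood at 1.99, 2.78 and 2.04 CPM in *Mael*+/- RNA and at 5.97, 5.01 and 4.56 CPM in *Mael*-/- RNA. Every *Mael*-/- library was above every *Mael*+/- library. The mean went from 2.27 ± 0.441 to 5.18 ± 0.720 CPM (SD, n = 3), a difference of 1.17 on the log2 scale (edgeR adjusted p = 0.0145, SE 0.23). RLTR10D2 stood at 2.77, 2.30 and 2.61 CPM against 5.39, 5.30 and 6.38 CPM, again with no overlap. Its log2 fold change was 1.16, with an SE of 0.22 and an edgeR adjusted p of 0.00961. These 2 of 10 names compare with 0.898% called among the 1114 repeat names tested in RNA, all higher in *Mael*-/-. With RLTR10A, 3 of the 10 had an unadjusted p under 0.05, against 5.57% of the names tested.

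RLTR10A had the next largest difference, at 4.03, 2.49 and 2.19 CPM in *Mael*+/- RNA and 5.39, 4.81 and 4.92 CPM in *Mael*-/- RNA. The groups did not overlap, but the log2 fold change of 0.80 (SE 0.25) did not pass the test (edgeR adjusted p = 0.238). Without *Mael*+/- replicate 1, the highest of its group, RLTR10A had a log2 fold change of 1.1 and passed (edgeR adjusted p = 0.0122), which made 3 names called. RLTR10A, RLTR10D and RLTR10D2 were the 3 of 10 names with all *Mael*-/- libraries above all *Mael*+/- libraries, a pattern seen in 9.43% of the names tested. The calls of RLTR10D and RLTR10D2 were close to the limit, since leaving out *Mael*+/- replicate 3 ended both, with edgeR adjusted p-values of 0.0908 and 0.0501. Leaving out *Mael*-/- replicate 1 or 2 ended the call of RLTR10D (edgeR adjusted p = 0.0673 and 0.0515), and leaving out *Mael*-/- replicate 3 ended that of RLTR10D2 (0.0907).

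**Figure D1:**
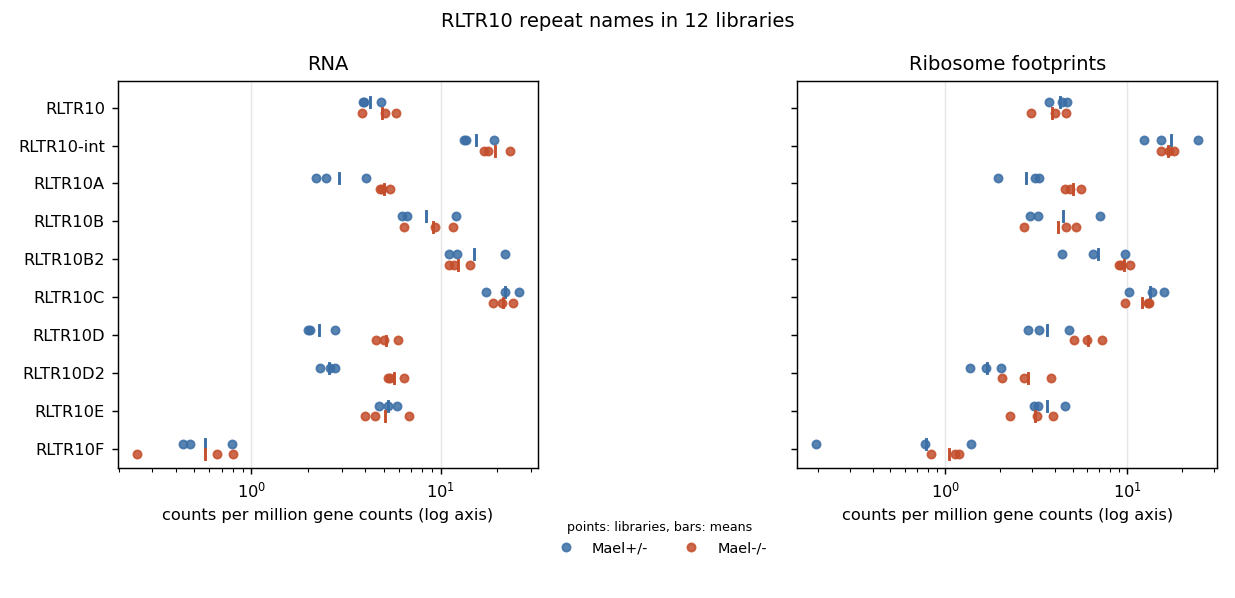
Level of each RLTR10 name in every library, in CPM on a log axis, for RNA (left) and ribosome footprints (right). Points are libraries and vertical bars are means of 3. RLTR10A, RLTR10D and RLTR10D2 are the names whose *Mael*-/- points all lie to the right of the *Mael*+/- points, in both assays.

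RLTR10B2, RLTR10B, RLTR10C and RLTR10-int, the names with most counts, overlapped between genotypes. RLTR10B2 had 21.8, 12.2 and 11.1 CPM in *Mael*+/- RNA against 14.3, 11.2 and 11.7 CPM in *Mael*-/- RNA. RLTR10B had 12.1, 6.62 and 6.27 CPM against 11.6, 6.44 and 9.41 CPM. In both names *Mael*+/- replicate 1, the library high in pachytene markers, was the highest of the 6, and the part of that cell stage in these levels was not tested. *Mybl1* RNA was also highest there, at 125, 61.0 and 71.4 CPM in *Mael*+/- libraries and 79.4, 78.4 and 60.6 CPM in *Mael*-/- libraries. The log2 fold changes were -0.28 for RLTR10B2 (95% CI -0.83 to 0.27), 0.13 for RLTR10B (-0.47 to 0.73), -0.02 for RLTR10C (-0.47 to 0.43) and 0.33 for RLTR10-int (-0.14 to 0.81). Without that library RLTR10B2 turned to 0.09 and RLTR10C to 0.12, and RLTR10B moved to 0.50 and RLTR10-int to 0.52, none of them called (edgeR adjusted p = 0.893, 0.848, 0.548 and 0.484). The median log2 fold change was 0.17 over the 10 RLTR10 names and 0.10 over all names tested. For comparison, 5 of 23 names of intracisternal A particles (IAP), another ERVK group, were called higher with a median of 0.51, and 0 of 224 other ERVK names were called by edgeR (12 with an unadjusted p under 0.05).

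Copies were then tested one at a time, in a fit across the 16710 repeat copies of all kinds with enough RNA counts. Only 33 RLTR10 copies passed the count filter, with 34.0% of RLTR10 RNA counts between them. Of these, 3 rose and 2 fell, or 15.2%, against 1.62% called over all copies tested (1.51% higher and 0.102% lower). Of the IAP copies tested, 19 of 154 rose and 1 fell, and of other ERVK copies 9 of 800 rose and 5 fell. Copies high in one genotype pass such a filter more easily, so the 33 do not stand for all 10835. The 3 copies that rose passed it only through their *Mael*-/- counts, so their calls and the 15.2% are given as description. RLTR10D_361 had 3, 5 and 1 counts in *Mael*+/- RNA and 30, 36 and 56 counts in *Mael*-/- RNA. Its level went from 0.117 ± 0.0734 to 2.0 ± 0.202 CPM (SD, n = 3), a log2 fold change of 4.03, with an SE of 0.43 and an edgeR adjusted p of 1.47e-06. RLTR10D2_93 had 6, 9 and 9 counts against 46, 46 and 73 counts, a rise from 0.310 ± 0.0434 to 2.76 ± 0.541 CPM. Its log2 fold change was 3.11, with an SE of 0.33 and an edgeR adjusted p of 1.47e-06. In both copies the lowest *Mael*-/- library lay well above the highest *Mael*+/- library.

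RLTR10C_432, the other copy that rose, had 5, 1 and 2 counts against 8, 12 and 18, and a log2 fold change of 2.49, with an SE of 0.63 and an edgeR adjusted p of 0.0378. Its groups did not overlap either. The copies that fell were RLTR10B2_833 and RLTR10C_711, the leading copies of their names. RLTR10B2_833 had 69, 53 and 51 counts in *Mael*+/- RNA and 8, 20 and 21 in *Mael*-/- RNA, and dropped from 2.28 ± 0.611 to 0.780 ± 0.205 CPM. Its log2 fold change was -1.51, with an SE of 0.31 and an edgeR adjusted p of 0.00520. RLTR10C_711 had 63, 81 and 58 counts against 16, 22 and 35, and its level dropped from 2.63 ± 0.396 to 1.18 ± 0.0936 CPM. Its log2 fold change was -1.15, with an SE of 0.27 and an edgeR adjusted p of 0.0225. Both falls left the groups without overlap. RLTR10D_361, RLTR10D2_93 and RLTR10C_432 passed the filter only through their *Mael*-/- counts, so their refits with the same libraries are given as description. The calls of RLTR10D_361, RLTR10D2_93 and RLTR10B2_833 held with each library left out and with DESeq2. Those of RLTR10C_711 and RLTR10C_432 did not, with DESeq2 adjusted p-values of 0.0553 and 0.0624 and with edgeR adjusted p-values of up to 0.188 and 0.263 when a library was left out.

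**Figure D2:**
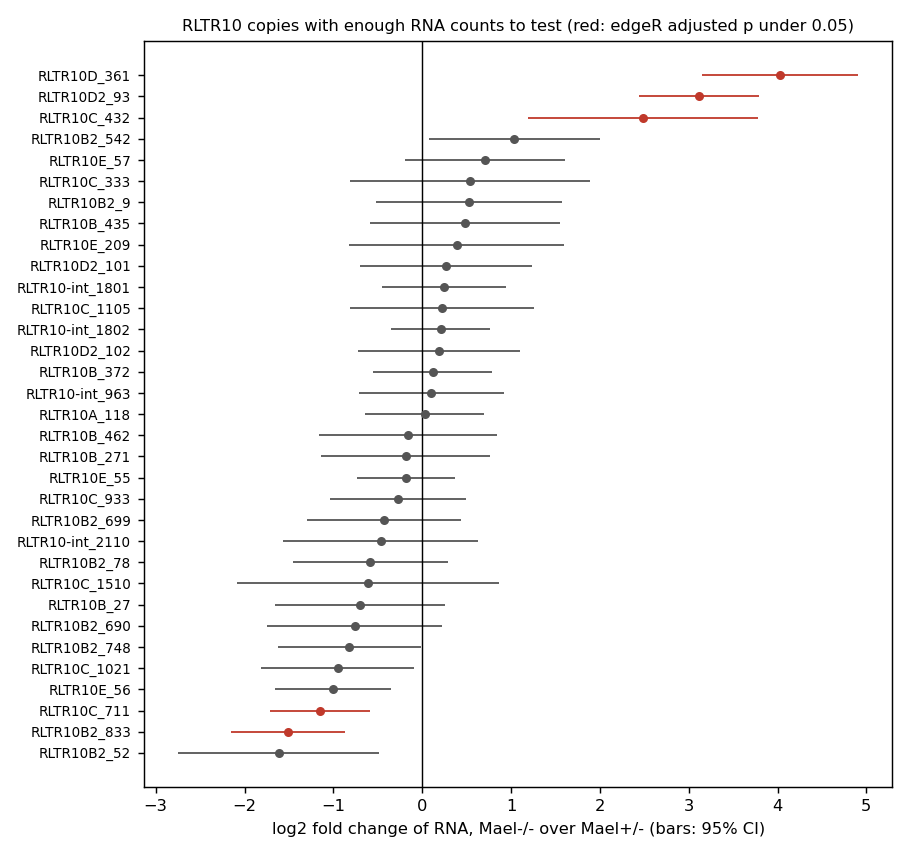
Log2 fold change of RNA, *Mael*-/- over *Mael*+/-, for the 33 RLTR10 copies with enough counts to test, ordered by value. Bars are 95% confidence intervals and red marks an edgeR adjusted p under 0.05. The 3 copies that rose lie at 2.49 to 4.03 and the 2 that fell at -1.51 and -1.15, while the median copy is at 0.03.

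Among the other copies with most RNA, RLTR10E_56 had 37, 35 and 39 counts in *Mael*+/- RNA and 11, 13 and 20 in *Mael*-/- RNA. Its groups did not overlap, yet the log2 fold change of -1.0 (SE 0.31) missed the threshold (edgeR adjusted p = 0.152). Its neighbour in number RLTR10E_55 had 51, 55 and 60 counts against 34, 34 and 45, which is 2.16 ± 0.134 against 1.93 ± 0.469 CPM, and the groups overlapped. RLTR10-int_1802, the copy with most RNA counts of all RLTR10, had 75, 51 and 50 counts against 38, 57 and 68, or 2.33 ± 0.793 against 2.69 ± 0.185 CPM. RLTR10B_372 had 44, 32 and 29 counts against 22, 17 and 55. RLTR10B2_748 had 53, 28 and 19 against 12, 11 and 23, and RLTR10C_1021 had 49, 25 and 20 against 15, 9 and 14. In both of the last copies *Mael*+/- replicate 1 was more than any other library, and neither was called. Without that library the log2 fold changes were -0.22 for RLTR10B2_748, -0.38 for RLTR10C_1021, 0.40 for RLTR10B_372 and 0.51 for RLTR10-int_1802, none of them called by edgeR. Over the 33 copies, 3 had all *Mael*-/- libraries above all *Mael*+/- libraries (11.5% of all copies tested) and 4 had all below (3.29% of all).

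The rises of RLTR10D and RLTR10D2 were in large part those of 1 copy each. RLTR10D_361 made up 5.11% of RLTR10D RNA counts in *Mael*+/- testes and 39.6% in *Mael*-/- testes, and 64.9% of the difference in mean CPM between them. RLTR10D2_93 made up 12.2% and 46.3% of RLTR10D2 RNA counts and 78.4% of the difference. RLTR10D without its leading copy was at 1.86, 2.6 and 2.0 CPM in *Mael*+/- RNA and 3.78, 3.22 and 2.52 CPM in *Mael*-/- RNA, so that the groups now overlapped. The log2 fold change was 0.54 (edgeR adjusted p = 0.830). RLTR10D2 without its leading copy was at 2.51, 1.98 and 2.27 CPM against 2.04, 3.02 and 3.72 CPM, a log2 fold change of 0.41 (edgeR adjusted p = 0.992). RLTR10A moved the other way without its leading copy, from a log2 fold change of 0.80 to 1.06 (edgeR adjusted p = 0.0596), and RLTR10C turned from -0.02 to 0.08. With the leading copy of each repeat name removed throughout the table, 0 of the 10 RLTR10 names were called in RNA by edgeR and 2 had an unadjusted p under 0.05, while 1.37% of the 1022 names still tested were called. For this removal the leading copy was the one with most counts over all 12 libraries, RNA and footprints together. In RLTR10 it was RLTR10_498, with 8 RNA and 33 footprint counts, rather than the copy with most RNA. A copy high in *Mael*-/- testes was more easily picked, and these values describe how the counts were spread over copies.

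**Figure D3:**
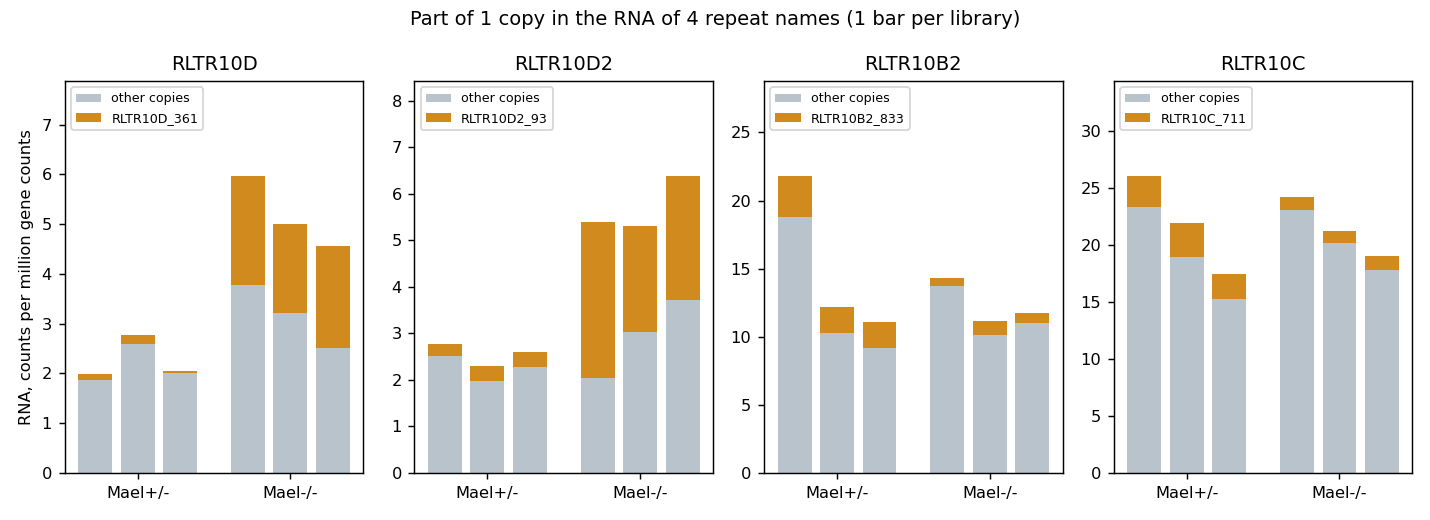
RNA of 4 RLTR10 names in each library, in CPM, divided into the leading copy (orange) and all other copies (grey), with 1 bar per library and axes from 0. The leading copy is 39.6% of RLTR10D and 46.3% of RLTR10D2 RNA counts in *Mael*-/- testes, and falls from 15.3% to 6.59% of RLTR10B2 and from 12.1% to 5.69% of RLTR10C.

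Of the 211 RLTR10 copies with at least 10 RNA counts, 4 had counts in *Mael*-/- testes only (1.90%, against 0.602% of such copies of all repeats) and 2 in *Mael*+/- testes only (0.948%, against 0.399%). They were named after their values were seen. RLTR10A_683 had 1, 6 and 7 counts in *Mael*-/- RNA, RLTR10A_690 had 3, 5 and 5, and RLTR10-int_2380 had 1, 4 and 10. The copy listed as RLTR10-int with no number had 6, 2 and 3. A count of 0 over the 3 *Mael*+/- RNA libraries allows up to 0.0390 CPM, by the 3 counts that a 0 leaves possible. In the other direction, RLTR10C_1289 had 5, 3 and 3 counts in *Mael*+/- RNA, and RLTR10D2_161 had 12, 0 and 4. None of the 6 had enough counts for the copy test as run. With a filter of 5 counts in sum, RLTR10-int_2380 (edgeR adjusted p = 0.0417) and a further copy, RLTR10-int_21 (0.00255), were called higher. That made 7 of 419 RLTR10 copies tested, against 0.443% of the 230479 copies of all repeats tested with that filter. RLTR10-int_21 had 0, 1 and 0 counts in *Mael*+/- RNA and 3, 12 and 10 in *Mael*-/- RNA. Like RLTR10-int_2380, it passed the filter only through its *Mael*-/- counts, so these calls and their share are given as description.

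The next comparison asked whether ribosome footprints on RLTR10 RNA differed between genotypes. No RLTR10 name was called by edgeR or by DESeq2, while 1.82% of the 1045 names tested were called by edgeR. By edgeR, 4 of the 10 names (RLTR10A, RLTR10B2, RLTR10D and RLTR10D2) had an unadjusted p under 0.05, against 7.46% of names tested. All 4 were higher in *Mael*-/-. In that fit all names shared 1 spread, so these p-values do not rest on the scatter of each name's own libraries. The DESeq2 adjusted p-values of these names were 0.354, 0.953, 0.567 and 0.953, in that order. The names with no overlap between genotypes were the same as in RNA, 3 of 10 against 11.3% of names tested. RLTR10A stood at 3.29, 3.10 and 1.95 CPM in *Mael*+/- footprints and 4.54, 5.59 and 4.86 CPM in *Mael*-/- footprints, a log2 fold change of 0.85, with an SE of 0.27 and an edgeR adjusted p of 0.0963. RLTR10D stood at 3.29, 2.85 and 4.78 CPM against 5.98, 5.09 and 7.24 CPM, a log2 fold change of 0.72, with an SE of 0.25 and an edgeR adjusted p of 0.159. RLTR10D2 had 2.02, 1.68 and 1.37 CPM against 2.04, 2.69 and 3.80 CPM, so that its nearest libraries, at 2.02 and 2.04, were nearly level (edgeR adjusted p = 0.545). Without *Mael*+/- footprint replicate 1, RLTR10A and RLTR10B2 were called higher, with log2 fold changes of 1.01 and 0.84 and edgeR adjusted p-values of 0.0144 and 0.00582. The pachytene marker *Piwil1* had 107 CPM of footprints in that library against 15 and 20.9 CPM in the other *Mael*+/- libraries and 8.78 to 11.3 CPM in *Mael*-/- libraries. The part of pachytene cells in this result was not tested.

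Footprints and RNA of the same name often lay on different copies. RLTR10D_361 held 27.1% of RLTR10D RNA but 3.75% of its footprints, with 1, 0 and 0 footprints in *Mael*+/- and 4, 5 and 1 in *Mael*-/- libraries. RLTR10D_117, RLTR10D_177 and RLTR10D_168 together held 47.8% of RLTR10D footprints and 6.82% of its RNA. RLTR10D_117 had 9, 2 and 11 footprints in *Mael*+/- and 13, 13 and 17 in *Mael*-/- libraries (log2 fold change 0.80, edgeR adjusted p = 0.995). RLTR10D2_93 held 3.03% of RLTR10D2 footprints. RLTR10C_711, with 275 RNA counts, had 0 footprints in all 6 libraries, which allows at most 0.0508 CPM over them. RLTR10E_55 had footprints of its own, 10, 14 and 19 in *Mael*+/- and 8, 9 and 9 in *Mael*-/- libraries, or 35.0% of RLTR10E footprints. Only 5 RLTR10 copies had enough footprints to test, and 0 were called by edgeR or DESeq2 against 0.817% of the 5511 copies tested. RLTR10E_55 alone had an unadjusted p under 0.05 (log2 fold change -0.91, SE 0.41, edgeR adjusted p = 0.899).

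Some copies had footprints and almost no RNA. By the methods, footprints were shorter than the RNA reads, and the part of read length in placing reads on copies was not tested. Of 16 RLTR10 copies with at least 20 footprints, 10 had 3 or fewer RNA counts over the 6 RNA libraries (62.5%), against 28.9% of the 21188 such copies of all repeats. RLTR10C_1144 had 20, 14 and 11 footprints in *Mael*+/- and 19, 9 and 5 in *Mael*-/- libraries, with 1 RNA count. RLTR10-int_535 had 28, 10 and 8 footprints against 5, 6 and 8, with 0 RNA counts. RLTR10C_1144 was not called (log2 fold change -0.69, edgeR adjusted p = 0.995), and RLTR10-int_535 did not reach the count filter. RLTR10-int_1802 differed from these in carrying both, with 19, 14 and 9 footprints against 27, 18 and 13.

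A change of footprints beyond that of RNA, the translation efficiency, was tested as the interaction of genotype and assay. This first fit had no term for the extract that gave both libraries. It was called for 0 of the 10 RLTR10 names by edgeR and by DESeq2, and the background was 0% of the 996 names tested. None of the 10 had an unadjusted p under 0.05, while 2.91% of all names did. The estimate for RLTR10B2 was 0.76 on the log2 scale (95% CI -0.02 to 1.54). The ratio of RLTR10B2 footprint level to RNA level was 0.448, 0.529 and 0.397 in the *Mael*+/- extracts and 0.723, 0.805 and 0.788 in the *Mael*-/- extracts, with no overlap. Its footprints and RNA lay in part on different copies. RLTR10B2_3, RLTR10B2_300 and RLTR10B2_832 held 16.9% of its footprints and 0.107% of its RNA. RLTR10B2 was the 1 of 10 RLTR10 names with all *Mael*-/- ratios above all *Mael*+/- ratios, which held for 2.61% of the names tested, and 0 of the 10 had all below, against 4.02%. With each extract as a term in the fit, the interval for RLTR10B2 was 0.21 to 1.31 (unadjusted p = 0.00833 by edgeR), and the edgeR adjusted p was 0.625. In that fit RLTR10B2 was the 1 RLTR10 name with an unadjusted p under 0.05, against 3.82% of names. RLTR10D had ratios of 1.65, 1.02 and 2.34 against 1.0, 1.02 and 1.59, and an estimate of -0.45 (95% CI -1.14 to 0.25). For RLTR10D2 the estimate was -0.43 (95% CI -1.21 to 0.34).

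**Figure D4:**
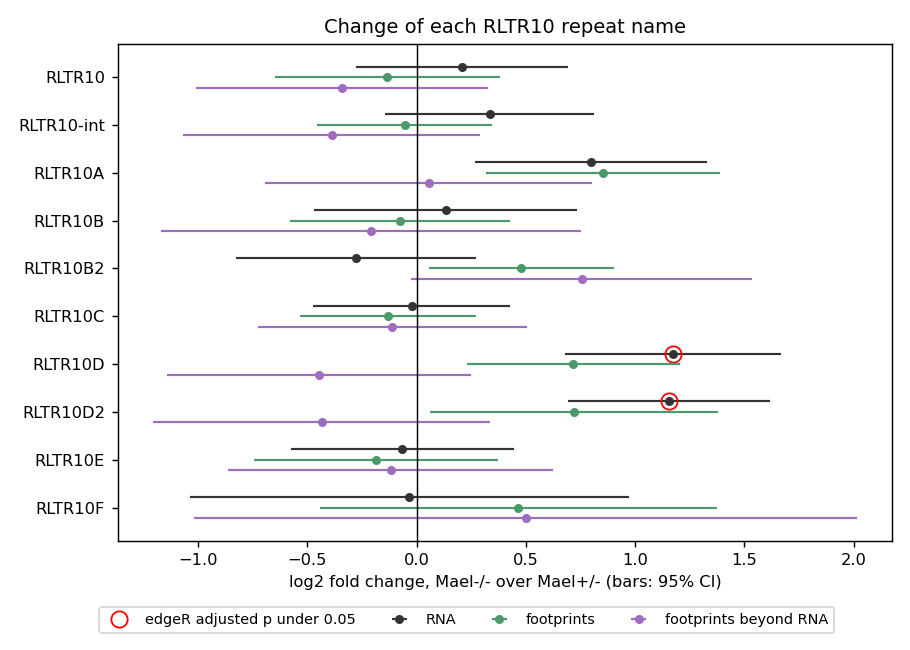
Log2 fold change, *Mael*-/- over *Mael*+/-, of each RLTR10 name in RNA, in footprints and in footprints beyond RNA. Bars are 95% confidence intervals from edgeR. For footprints beyond RNA the fit had no term for the extract. Red circles mark adjusted p under 0.05. RNA of RLTR10D (1.17) and RLTR10D2 (1.16) is circled, and RLTR10B2 has its footprint estimate above 0 and its RNA estimate below 0.

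**Figure D5:**
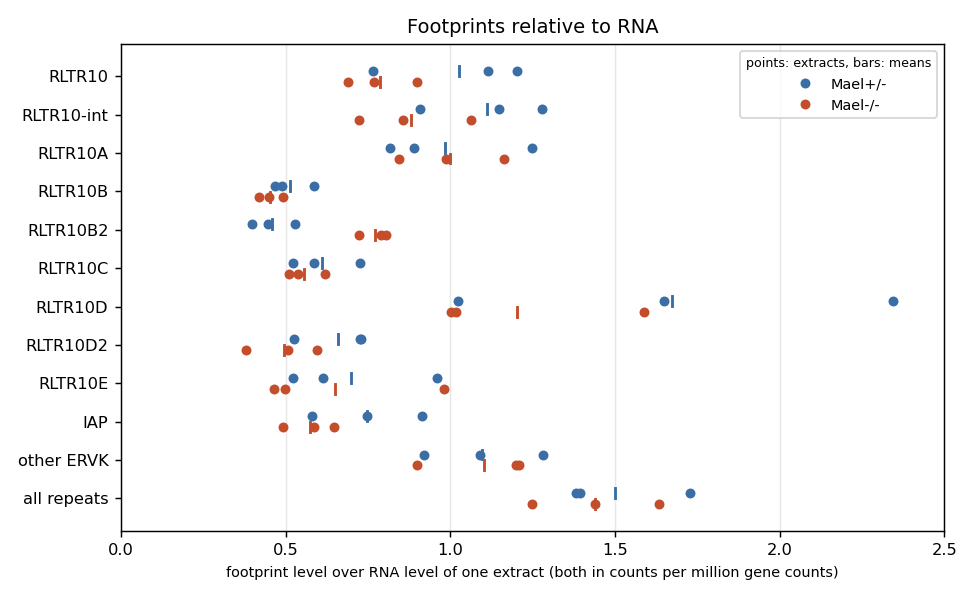
Footprint level divided by RNA level in each extract, for 9 RLTR10 names, IAP, other ERVK and all repeats. Points are extracts and vertical bars are means of 3; RLTR10F, with 78 RNA counts in all, is left out. RLTR10B2 is the name whose genotypes separate upward, from 0.397 to 0.529 in *Mael*+/- and from 0.723 to 0.805 in *Mael*-/-.

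Summed over all copies, RLTR10 RNA was 99.1, 70.8 and 65.1 CPM in *Mael*+/- testes and 104, 81.1 and 82.0 CPM in *Mael*-/- testes. The groups overlapped, and the difference of mean log2 levels was 0.20 (exact two-sided permutation p = 0.4). Summed footprints were 71.7, 58.2 and 46.0 CPM against 66.5, 63.2 and 63.5 CPM, a difference of 0.16 (exact two-sided permutation p = 0.5). In both assays the overlap came from *Mael*+/- replicate 1, without which every *Mael*-/- library was above the other *Mael*+/- libraries. The difference was then 0.379 in RNA and 0.312 in footprints (exact two-sided permutation p = 0.1 for each, the smallest that 2 against 3 libraries allow). With 3 against 3 libraries the smallest p this test can give is 0.1, and over the 10 such comparisons computed the smallest Benjamini-Hochberg adjusted p was 0.833. The footprint to RNA ratio of all RLTR10 was 0.751 ± 0.0622 in *Mael*+/- and 0.731 ± 0.0788 in *Mael*-/- extracts (SD, n = 3). It was 0.746 ± 0.167 and 0.574 ± 0.0779 for IAP, and 1.1 ± 0.181 and 1.1 ± 0.176 for other ERVK elements. Relative to IAP, RLTR10 RNA differed by -0.18 on the log2 scale between genotypes (exact permutation p = 0.5) and RLTR10 footprints by 0.14 (exact permutation p = 0.4).

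The names whose levels ran most alike over the 12 libraries, after the mean of each assay was subtracted, differed between RLTR10 names. Out of 1147 names, RLTR10D was most like IAP1-MM_LTR (Pearson's r 0.889), IAP1-MM_I-int (0.887), IAPEY2_LTR (0.877), L1Md_A (0.856) and IAPLTR2_Mm (0.852). RLTR10D2 was most like RLTR44-int (0.914), followed by IAPLTR2_Mm, IAP1-MM_I-int and L1Md_A, which also stand in the list of RLTR10D, and by U4 (0.883). RLTR10A was most like Lx5b (0.943), RLTR1B (0.939) and L1_Mm (0.927), and RLTR10B2 most like RLTR19B (0.936). RLTR10D and RLTR10D2 had an r of 0.791 with each other, RLTR10A and RLTR10D2 of 0.839, and RLTR10C and RLTR10D of -0.32. All of these share libraries and are given as description.

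Genes with a part in the silencing of endogenous retroviruses were listed alongside, among them *Trim28* and *Setdb1*, the corepressor and histone methyltransferase recruited by zinc finger proteins, the DNA methyltransferases and piRNA factors. *Mybl1*, an activator of piRNA genes, was on the list, and *Mael*, given above, was not. Of 37 listed genes, 35 were in the table and tested in RNA, and 0 were called by edgeR, with 0.116% called over the 14647 genes tested. In footprints 0 of 32 were called, with 0.0593% over 13500 genes. In each assay 3 had an unadjusted p under 0.05, namely *Piwil1*, *Tdrd9* and *Mov10l1*, as did 5.39% of all genes tested in RNA and 4.33% in footprints. *Piwil1* RNA was 78.8 CPM in *Mael*+/- replicate 1, 10.9 and 13.9 CPM in the other *Mael*+/- libraries and 8.08, 8.08 and 6.82 CPM in *Mael*-/- libraries. The log2 fold changes in RNA were -2.17 for *Piwil1*, -0.51 for *Tdrd9* and -0.45 for *Mov10l1* (edgeR adjusted p = 0.730, 0.611 and 0.866). The median over the list was -0.04 in RNA. *Setdb1* was at 0.15 and *Trim28* at -0.10 on the log2 scale.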

How the data were processed

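The authors digested part of each lysate with micrococcal nuclease for footprints and made stranded, rRNA-depleted libraries from the rest. Per the submitters' processing notes and methods, footprint reads were trimmed of linkers and UMIs and freed of ribosomal reads with Bowtie 1.2.2, and footprint and RNA reads were aligned to mm10 with STAR 2.6.0c and counted with featureCounts (Subread 1.6.4). The deposited table holds raw counts per gene and per repeat copy. For genes the methods count RNA over whole mRNAs but footprints over coding sequence, so gene totals, and with them CPM and footprint to RNA ratios, have another base in each assay. How multi-mapping reads and strand were handled for repeats, and whether duplicates were collapsed, is not given in the sources used here, so reads may be shared between near-identical copies or come from a transcript that runs through a copy, and errors and floors cover the deposited counts only. Other deposited tables hold the authors' log2 fold changes and p-values for genes and were not used.

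Here counts were summed by repeat name or kept per copy. They were tested with edgeR 4.0.16 (R 4.3.3), by quasi-likelihood F-tests on gene totals with TMM factors from genes, over all names or copies passing filterByExpr (minimum count 10), with Benjamini-Hochberg adjustment over all of them and calls at 0.05. The script was tested on simulated counts. In the footprint fit of names all names shared 1 spread. DESeq2 1.42.0, other size factors, library sizes and filters, a replicate block, removal of leading copies and leaving out each library were the alternatives. Named were all RLTR10 names, the 10 copies with most RNA counts, the 5 with most footprints and all called copies. Members and lists were chosen with earlier results of these data known.

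Nothing but the description as biological replicates says that libraries came from separate animals. Deviations from group means over 14374 genes correlated at 0.772, 0.615 and 0.652 between RNA and footprints of the same *Mael*+/- number. For *Mael*-/- they correlated at 0.240, 0.228 and 0.229. These were taken as pairs from 1 extract, since the methods made both libraries from each lysate.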

Additional observations from a re-analysis of the deposited data

How the results depend on the processing

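Of 569 log2 values recomputed, 509 kept their direction and side of the threshold, and of 61 counts of calls recomputed, 45 were equal to those given above. The 2 RLTR10 names called in RNA became 3 with a replicate block, which added RLTR10A (edgeR adjusted p = 0.00260). In that fit RLTR10D and RLTR10D2 had edgeR adjusted p-values of 2.52e-05 and 1.92e-05. The names called were 0 without leading copies and ran from 0 to 3 when a library was left out. Between *Mael*+/- and *Mael*-/- libraries of the same number, deviations correlated at 0.216, -0.0173 and 0.151 in RNA and at 0.0710, 0.208 and 0.0467 in footprints. These values do not settle whether the numbers pair the genotypes, and the calls above came from fits without a replicate block. The replicate block left the copies called in RNA at 5, and the extract block left translation efficiency calls at 0. Names called in footprints ran from 0 to 2 with a library left out. Copies called in RNA were 7 with at least 5 counts in sum, 3 with DESeq2, 3 with a mean of at least 20 counts, and 3 to 5 with a library left out.

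The summed difference of RLTR10 ran from 0.0772 to 0.379 in RNA, from -0.00546 to 0.312 in footprints and from -0.0855 to 0.0552 in translation efficiency with a library or extract left out. Without leading copies, log2 values changed sign for RLTR10C (0.0810) and RLTR10E (0.0024) in RNA, for RLTR10E in footprints (0.21), and in translation efficiency for RLTR10A (-0.18), RLTR10D (0.13), RLTR10D2 (0.29) and RLTR10E (0.21). Leaving out a library gave both signs, in RNA for RLTR10B (-0.0675 to 0.499), RLTR10B2 (-0.456 to 0.0866), RLTR10C (-0.16 to 0.12), RLTR10E (-0.316 to 0.0865), RLTR10F (-0.28 to 0.33) and RLTR10B_372 (-0.22 to 0.40). It did so in footprints for RLTR10 (-0.27 to 0.0063), RLTR10-int (-0.26 to 0.28), RLTR10B (-0.32 to 0.46), RLTR10C (-0.286 to 0.0162), RLTR10F (-0.0414 to 1.23) and RLTR10-int_1802 (-0.0798 to 0.473). In translation efficiency it did so for RLTR10A (-0.0914 to 0.236), RLTR10C (-0.228 to 0.0340), RLTR10E (-0.45 to 0.14) and RLTR10F (-0.32 to 1.42). None of these 37 changed signs involved a call, and the cause was not tested. Removing copies that overlap exons was not run, since copies have no positions here. Low counts per copy limit the copy tests to 33 of 10835 copies in RNA and 5 in footprints.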
